A study of Mus musculus with 4 samples.

Results

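Apolipoproteins are the protein components of the particles that carry lipid in blood, and liver is the main source of most of them. The 10 apolipoprotein genes described here (Apoa1, Apoa2, Apoa4, Apoa5, Apob, Apoc1, Apoc3, Apoe, Apoh and Apom) were chosen by name, as the genes with these single symbols in the platform annotation. They were represented by 15 of the 18852 probe sets, and they are 10 of the 10923 genes measured. The livers came from C57BL6/J mice, all male and between 6 and 13 weeks old, and were compared 48 hours after a partial hepatectomy that removed 40% of the organ. The mice had received 1 injection of siRNA in a lipid transfection reagent 3 days before the operation. The siControl group (2 arrays) received a control siRNA and the siOrm group (2 arrays) an siRNA directed at Orm1, the gene of the acute phase protein orosomucoid. All 4 arrays therefore measured operated and injected liver, and none an unoperated or untreated one. The labels do not say whether an array stands for 1 mouse or several, so p-values reflect the spread among these arrays alone, and that spread may be technical. The titles siOrm1 and siOrm2 could be replicate numbers or could name Orm1 and Orm2 as targets. They are treated here as replicates because the source name and description put both in a single group; were they different siRNAs, every SD, SE and gap within siOrm below would include that difference.

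Each value below is a log2 signal relative to the median of the 4 arrays for the same probe set, averaged over the probe sets of a gene, and each difference is siOrm minus siControl. Base 2 was assumed, since the table does not name its base. Centring on the median of 4 places the middle pair of arrays at equal distances on either side of 0, so the gaps between arrays carry the information and not the sign of a value. Orm1, the target of the siRNA, had siControl values of 0.015 and 0.19 and siOrm values of -0.24 and -0.015, a difference of -0.23 with a standard error (SE) of 0.15. Orm2 differed by -1.08 (SE 0.34) and Orm3 by -0.91 (SE 0.34), and none of the 3 passed the test (limma, adjusted p = 0.994 for each). Orm3 differed by -1.43 without siControl replicate 1 and by -0.39 without siControl replicate 2. Orm2 ran from -1.46 to -0.69 with 1 array left out. The groups are called here by their labels.

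Apolipoproteins fall into several functional classes. Apob is the structural scaffold of very low density lipoprotein (VLDL), whereas Apoa1 and Apoa2 form the frame of high density lipoprotein (HDL). The exchangeable proteins Apoc1, Apoc3 and Apoa5 set how fast lipoprotein lipase empties the triglyceride of a particle. Apoe directs remnant particles to hepatic receptors, Apom carries sphingosine 1-phosphate on HDL, and Apoh is a phospholipid-binding plasma protein. Apoa4 is made in intestine and liver and is known to follow the lipid load of the cell.

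No apolipoprotein gene passed the test between siOrm and siControl, and 9 of the 10 group means lay within 0.12 of each other. Of the 10 genes, 0 were called at an adjusted p under 0.05 and 0 had an unadjusted p under 0.05 (limma; the smallest adjusted p was 0.996, for Apoa4). Among all 10923 genes, 0 (0%) were called and 520 (4.76%) had an unadjusted p under 0.05. Alternative forms of the variance estimate, with a trend over the mean of these centred values, called 11 and 132 genes over the whole table. Such a mean carries no signal level. With siControl replicate 1 left out the test called 229. In each of these fits 0 of the 10 apolipoprotein genes were called. The median difference was 0.015 over the 10 genes and 0.0084 over all genes. With 2 arrays against 2, an exact two-sided permutation test of a single gene cannot go below p = 0.333.

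**Figure D1:**
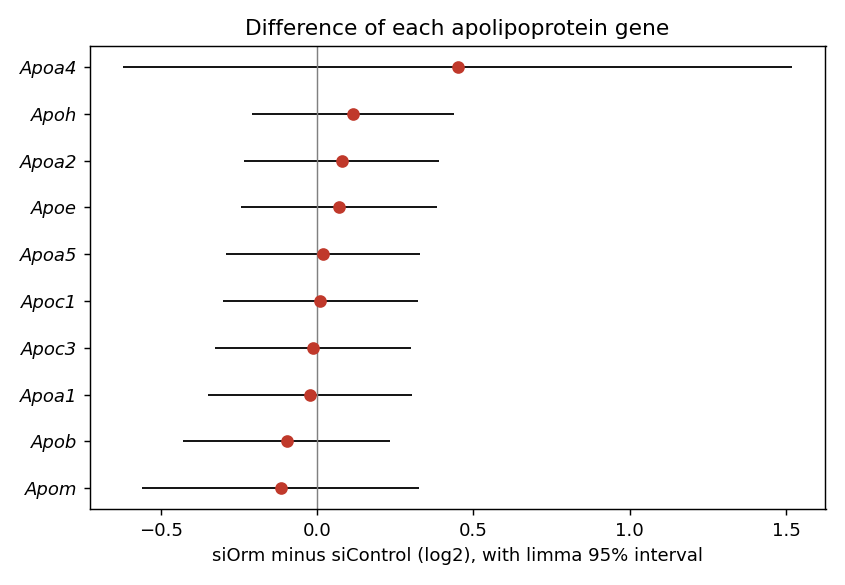
Difference between siOrm and siControl (log2) for each apolipoprotein gene, with points for the fitted differences and bars for the 95% limma intervals from 2 arrays a group. All 10 intervals include 0, and the interval of Apoa4, from -0.62 to 1.52, is the widest.

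The intervals describe the differences that the spread among these arrays allows. That spread may be technical, and compression of bright signal was not tested, so they set no bound on differences between mice. For 8 genes (Apoa1, Apoa2, Apoa5, Apob, Apoc1, Apoc3, Apoe and Apoh) the differences ran from -0.097 to 0.12, and no 95% interval reached below -0.43 or above 0.44. At base 2 the widest of these bounds is a 1.36-fold difference. The SE of these 8 genes lay between 0.125 and 0.133, close to one another, because limma draws the variance of each gene towards a value shared by all genes. The arrays themselves lay close together. The highest and lowest array of these 8 genes were 0.038 to 0.21 apart, against a median of 0.34 over all genes. All 8 ranges lay below 0.22, the lower quartile of all genes. Apom, at 0.42, was above the median, and Apoa4, at 1.38, exceeded 98.1% of all genes.

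**Figure D2:**
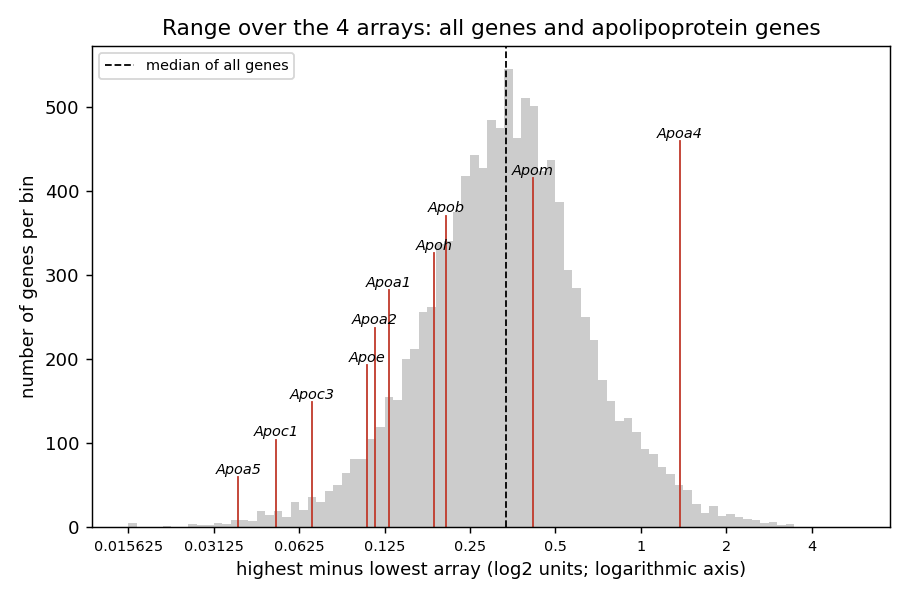
Distance between the highest and the lowest of the 4 arrays for all 10923 genes (grey bars, logarithmic axis in log2 units), with the 10 apolipoprotein genes as red lines whose height only separates the names. The dashed line is the median of all genes at 0.34; 8 apolipoprotein genes lie to its left, Apom just to its right and Apoa4 far to its right.

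The table holds no signal level, but its rounding keeps a trace of one. The deposited numbers are differences of single-precision logarithms, and logarithms of 8 or more are stored in coarser steps than smaller ones. Every value of all 15 apolipoprotein probe sets was a whole multiple of the coarser step (tolerance 0.05 steps), as did all 15 probe sets of the hepatocyte markers, a list of secreted and metabolic liver genes such as Alb and Ttr. The share was 36.2% over all probe sets, 2 of 8 for markers of intestinal epithelium and 2 of 15 for markers of stellate cells; a probe set at a lower level can meet the rule by chance. Genes whose probe sets all met the rule had a median range of 0.33, and 27.9% of them lay below that quartile. The hepatocyte markers were closer to the apolipoprotein genes: their median range was 0.21, against 0.12 for the 10 apolipoprotein genes, and 7 of 12 lay below the quartile. How far bright probe sets were compressed by saturation was not tested.

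**Figure D3:**
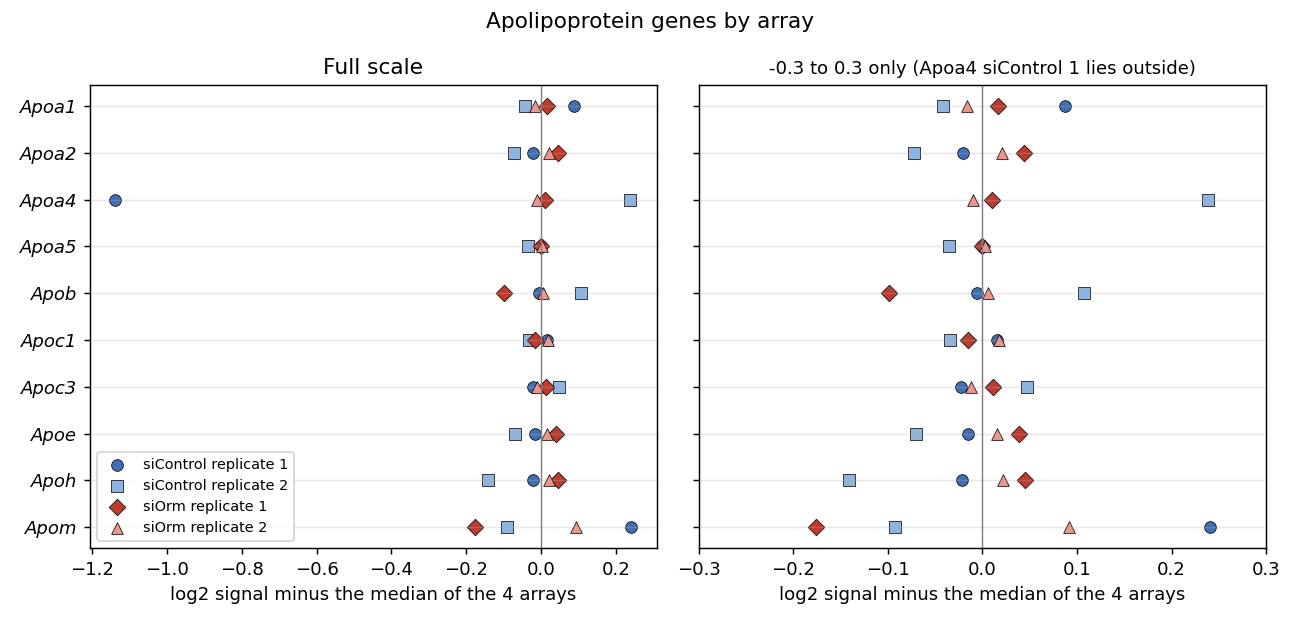
Values of the 10 apolipoprotein genes on each array (log2 signal minus the median of the 4 arrays); colour and shape mark the array, and the right panel enlarges the span from -0.3 to 0.3. Apoa4 in siControl replicate 1, at -1.14, is the single value far from the others, and in the enlarged panel siControl replicate 2 is the lowest array for 6 of the 10 genes (38.9% of all genes, 58.3% of the hepatocyte markers).

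The HDL proteins showed small differences. Apoa1, which activates cholesterol esterification on HDL, stood at 0.087 and -0.042 in siControl and at 0.017 and -0.017 in siOrm. Both siOrm arrays lay between the siControl arrays, and the difference was -0.023 (SE 0.13, 95% interval -0.35 to 0.30). It turned to 0.042 without siControl replicate 1. Its 4 probe sets gave the same order, with siControl replicate 1 highest (0.060 to 0.12) and siControl replicate 2 lowest (-0.047 to -0.035). Apoa2, the other structural HDL protein, stood at -0.021 and -0.072 in siControl and at 0.044 and 0.021 in siOrm. Its groups did not overlap, with a difference of 0.078 (SE 0.13, interval -0.23 to 0.39).

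Apob, of which a VLDL particle carries a single molecule, had siControl values of -0.0056 and 0.11 and siOrm values of -0.099 and 0.0056. The groups overlapped, because siOrm replicate 2 lay above siControl replicate 1, and the difference was -0.097 (SE 0.13, interval -0.43 to 0.23).

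The 3 regulators of triglyceride clearance were the steadiest genes of the set. Apoc1, an inhibitor of several steps of lipoprotein uptake, stood at 0.015 and -0.034 in the controls and at -0.015 and 0.018 after siOrm, a difference of 0.011 (SE 0.13). Apoc3, an inhibitor of lipoprotein lipase, had siControl values of -0.022 and 0.047 and siOrm values of 0.012 and -0.012, with a difference of -0.012 (SE 0.13). The groups overlapped for both genes, and each difference changed sign when 1 array was left out: Apoc1 was -0.014 and Apoc3 was 0.022 without siControl replicate 2, and Apoc1 was -0.0058 without siOrm replicate 2. Apoa5, an activator of triglyceride lipolysis, had siControl values of -9.0e-05 and -0.035 and siOrm values of 9.1e-05 and 0.0029. Its range of 0.038 over the 4 arrays was wider than that of only 0.339% of all genes. The groups did not overlap, but only by the gap between -9.0e-05 and 9.1e-05, and the difference was 0.019 (SE 0.12).

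The groups did not overlap for Apoe and Apoh either, with siOrm the higher. Apoe stood at -0.015 and -0.070 in the controls and at 0.038 and 0.015 after siOrm, a difference of 0.069 (SE 0.13, interval -0.24 to 0.38). Apoh had siControl values of -0.022 and -0.14 and siOrm values of 0.045 and 0.022, with a difference of 0.12 (SE 0.13, interval -0.21 to 0.44). Apoh thus had the largest difference among the 4 genes whose groups did not overlap, which were Apoa2, Apoa5, Apoe and Apoh. For 0 apolipoprotein genes did both siOrm arrays lie below both siControl arrays. Over all genes, siOrm was the higher group without overlap for 17.0% and the lower for 15.3%. Among the 2953 genes whose probe sets all met the step rule, 715 were higher and 415 lower. Among the 12 hepatocyte markers, 3 were higher and 2 lower. The 4 and 0 of 10 are to be read against these backgrounds. Apoa2, Apoe and Apoh shared one order of the arrays, from siOrm replicate 1 over siOrm replicate 2 and siControl replicate 1 down to siControl replicate 2. This order was found for 7.21% of all genes and, among the 12 hepatocyte markers, for Ttr, the gene of the thyroxine carrier transthyretin.

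Apom, the carrier of sphingosine 1-phosphate, had siControl values of 0.24 and -0.092 and siOrm values of -0.18 and 0.092. The order of the 4 arrays alternated between the groups, and the gaps within siControl (0.33) and within siOrm (0.27) both exceeded the difference of -0.12 (SE 0.18, interval -0.56 to 0.33). The wider of the within-group gaps exceeded the difference for 8 of the 10 apolipoprotein genes and for 79.7% of all genes. The difference turned to 0.050 without siControl replicate 1 and to 0.018 without siOrm replicate 1. Its 2 probe sets agreed in this pattern, at 0.18 and 0.30 in siControl replicate 1 and at -0.21 and -0.14 in siOrm replicate 1.

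Apoa4 had the largest difference of the set, and that difference came from 1 control array. It stood at -1.14 in siControl replicate 1 and at 0.24 in siControl replicate 2, while the siOrm arrays stood at 0.010 and -0.010. The siControl mean was -0.45 ± 0.97 (SD, n = 2) and the siOrm mean 0.00 ± 0.014 (SD, n = 2). Both siOrm arrays lay between the siControl arrays, so the groups overlapped, and the difference was 0.45 (SE 0.43, interval -0.62 to 1.52; limma, adjusted p = 0.996). Without siControl replicate 1 the difference turned to -0.24 (adjusted p = 0.484), and without siControl replicate 2 it was 1.14 (adjusted p = 0.225). The direction of Apoa4 between siOrm and siControl therefore depends on which control array is kept.

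The low Apoa4 value was seen by both of its probe sets. One stood at -1.22 and the other at -1.06 in siControl replicate 1, and they stood at 0.22 and 0.26 in siControl replicate 2. At base 2, siControl replicate 2 exceeded siControl replicate 1 by 2.60-fold. A gap this wide in this direction was found for 80 of the 10923 genes (0.732%), and 7 genes, Apoa4 among them, were as low or lower in siControl replicate 1. The siControl pair was further apart than the siOrm pair for all 10 apolipoprotein genes and for 62.6% of all genes.

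**Figure D4:**
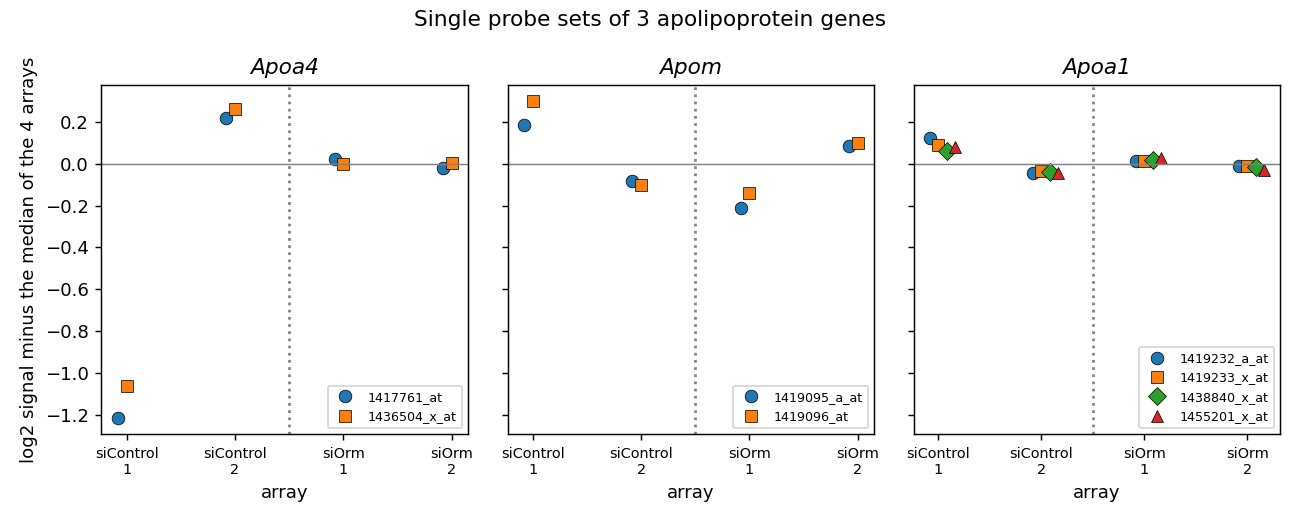
Each probe set of Apoa4, Apom and Apoa1 on the 4 arrays (log2 signal minus the median of the 4 arrays); symbols mark probe sets and the dotted line separates siControl from siOrm. Both Apoa4 probe sets are below -1 in siControl replicate 1, where both Apom and all 4 Apoa1 probe sets are at their highest.

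Apoa4 lies in a cluster of apolipoprotein genes, which allows its neighbours to be compared. In the RefSeq gene table the order of protein-coding genes on chromosome 9 is Apoa1, Apoc3, Apoa4 and Apoa5. In siControl replicate 1, where Apoa4 stood at -1.14, the neighbours stood at 0.087 (Apoa1), -0.022 (Apoc3) and -9.0e-05 (Apoa5). The low value was thus not shared in size by the rest of the cluster. The second cluster, on chromosome 7, holds Apoc2, Apoc4, Apoc1 and Apoe in this order. Apoc2, the activator of lipoprotein lipase and not among the 10 genes, was picked out after its values were seen: it stood at -0.36 in siControl replicate 1 and at 0.18, 0.044 and -0.044 in siControl replicate 2 and the siOrm arrays. Its neighbour Apoc4 stood at -0.042 and -0.063 in siControl and at 0.045 and 0.042 in siOrm.

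The 5 genes outside the set whose values over the 4 arrays were nearest to those of Apoa4 were Lgals1, Arrb1, Sulf2, Plac8 and G0s2. They were found by the root mean square distance between centred patterns, which ran from 0.10 to 0.15. In siControl replicate 1 they stood at -1.04 (Lgals1, the gene of galectin-1), -1.17 (Arrb1, beta-arrestin 1), -0.94 (Sulf2, a heparan sulfate sulfatase), -0.80 (Plac8) and -1.12 (G0s2, an inhibitor of adipose triglyceride lipase). Each was lowest on that array, as Apoa4 was. A likeness over 4 arrays is a description and says nothing of shared control.

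Promoter sequences are shown for the 3 genes with the widest ranges (Apoa4, Apom and Apob) and for Apoa1, the neighbour of Apoa4 that stood at the opposite end in siControl replicate 1. They are the 250 bases before the start of each gene in RefSeq, build GRCm38.p6, 5′ to 3′ on the gene's strand. Apoa1 is at chr9:46228380-46228629 (plus strand), Apoa4 at chr9:46240594-46240843 (plus strand), Apob at chr12:7977427-7977676 (plus strand) and Apom at chr17:35131802-35132051 (minus strand). Capitals mark matches to the motifs searched on both strands: a TATA box (TATAAA), a core of the binding site of HNF4, a hepatocyte nuclear receptor (CAAAGTCC, CAAAGTTC or CAAAGGTC), the longer element CAAAGGTCA, which contains the last of these, and the cyclic AMP element core TGACGT.

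Apoa1: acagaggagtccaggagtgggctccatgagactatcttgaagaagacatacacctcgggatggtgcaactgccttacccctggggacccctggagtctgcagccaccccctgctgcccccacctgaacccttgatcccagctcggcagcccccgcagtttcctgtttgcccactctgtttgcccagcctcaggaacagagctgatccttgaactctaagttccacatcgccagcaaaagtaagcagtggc
Apoa4: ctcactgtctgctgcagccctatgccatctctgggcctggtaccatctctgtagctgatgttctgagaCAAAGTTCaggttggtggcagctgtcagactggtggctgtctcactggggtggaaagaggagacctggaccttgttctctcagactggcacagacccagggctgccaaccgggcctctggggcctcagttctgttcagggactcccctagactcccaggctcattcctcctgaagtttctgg
Apob: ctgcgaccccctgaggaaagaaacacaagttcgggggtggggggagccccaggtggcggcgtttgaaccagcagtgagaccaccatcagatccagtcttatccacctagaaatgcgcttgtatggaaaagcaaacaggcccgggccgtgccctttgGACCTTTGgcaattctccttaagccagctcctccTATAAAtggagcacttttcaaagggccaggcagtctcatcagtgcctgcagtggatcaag
Apom: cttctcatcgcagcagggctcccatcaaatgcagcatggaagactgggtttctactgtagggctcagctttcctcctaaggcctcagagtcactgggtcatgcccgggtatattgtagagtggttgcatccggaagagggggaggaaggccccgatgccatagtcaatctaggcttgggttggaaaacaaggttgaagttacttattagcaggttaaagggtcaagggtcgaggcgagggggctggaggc

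Apoa4 holds CAAAGTTC 182 bases before the start, a run found in 0.898% of the 32851 promoter windows of this length. Apob holds CAAAGGTC on the opposite strand, 94 bases before the start (1.01% of windows), and TATAAA 60 bases before the start (12.4%). The windows of Apoa1 and Apom held no match to these letters. Of the 12 windows listed for the apolipoprotein genes, which cover 8 of the 10 genes, 5 held TATAAA (Apoa2, Apoa5, Apob and Apoe). The Apoa5 windows overlap, and the same TATAAA was counted in each. None of the 12 held CAAAGTCC (1.20% of windows), CAAAGGTCA (0.426%) or TGACGT (6.47%). CAAAGTTC and CAAAGGTC were added to the search after the windows had been read. A match is a description of letters and not a site of binding.

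Markers of other cell types also differed between the siControl arrays, between which Apoa4 had its widest gap. Of 16 Kupffer cell and macrophage markers 15 were measured, and their mean was -0.29 in siControl replicate 1, 0.62 in siControl replicate 2, and -0.017 and -0.062 in the siOrm arrays. Apoa4 was lowest and highest on the same siControl arrays as this mean, at -1.14 and 0.24. Apoe, which macrophages also make, stood at -0.015 and -0.070 there. Marco and Cd163, the macrophage markers with the widest ranges, stood at 1.97 and 0.99 in siControl replicate 2. In siControl replicate 1 they stood at 0.25 and -0.091, so neither shared the low list mean there. Over the list, siControl replicate 1 was the lowest array for 11 of the 15 markers (20.6% of all genes). For 13 of the 15, siControl replicate 2 was the highest array (28.1% of all genes). The means of sinusoidal endothelial markers (-0.19 and 0.29) and stellate cell markers (-0.16 and 0.36) were also lowest and highest in siControl replicates 1 and 2. For cholangiocytes, neutrophils and erythroid cells the mean did not have both extremes there. Intestinal epithelium, another source of Apoa4, had 7 of 12 markers measured, with means of -0.021 and -0.20 in the control arrays and of 0.16 and 0.045 in the siOrm arrays. The 12 hepatocyte markers measured, of 15, had siControl means of 0.030 and -0.068 and siOrm means of -0.023 and 0.021. The part of these cell types in the values above was not tested, and whether a defining marker was at 0 cannot be read from a centred table. In whole liver, fewer cells of a type and less RNA per cell cannot be told apart.

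The genes that build, carry and clear lipoproteins were described as 4 lists chosen with earlier results of these data known. For each list, genes without overlap are to be read against 17.0% (siOrm higher) and 15.3% (siOrm lower) of all genes. List medians have as background 0.0084 over all genes and 0.033 over the genes whose probe sets all met the step rule. Whether a list departed from these backgrounds was not tested. Among 14 other apolipoproteins and lipoprotein-borne proteins (of 19 listed), 0 passed over all genes, 2 had both siOrm arrays above and 2 below both siControl arrays, and the median difference was 0.064. Pon1, the HDL-borne paraoxonase, differed by 0.39 (SE 0.19), with siControl at -0.043 and -0.46 and siOrm at 0.25 and 0.043, and by 0.19 to 0.60 with 1 array left out. Clu, which encodes apolipoprotein J, differed by -0.19 (SE 0.14) and Saa4, a serum amyloid carried on HDL, by -0.10 (SE 0.13). Lcat, the enzyme that esterifies HDL cholesterol, differed by 0.26 (SE 0.25). The difference was -0.095 once siControl replicate 2, where it stood at -0.62, was left out.

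Of 27 measured genes of lipoprotein assembly and secretion (of 32 listed), 0 passed over all genes, 7 had both siOrm arrays above and 8 below, and the median difference was 0.059. The carboxylesterase genes had the 2 largest differences of this list. Ces1d stood at -0.27 and -0.80 in the controls and at 0.28 and 0.29 after siOrm, a difference of 0.82 (SE 0.20, limma, adjusted p = 0.994). That difference was 1.08 without siControl replicate 1 and 0.55 without siControl replicate 2. Ces1g had siControl values of -0.93 and -0.10 and siOrm values of 0.40 and 0.10, with a difference of 0.77 (SE 0.29), or 0.36 without siControl replicate 1 and 1.18 without siControl replicate 2. Sar1a, a GTPase of the vesicles that leave the endoplasmic reticulum, differed by -0.32 (SE 0.14). Apobec1, the deaminase that edits Apob mRNA, differed by -0.52 (SE 0.25), and its low value was in siOrm replicate 1 (-0.69, against -0.027 in siOrm replicate 2 and 0.027 and 0.29 in siControl). Without that array the difference was -0.19. Mttp, the transfer protein that loads lipid onto Apob, was added after its values were seen: it differed by 0.11 (SE 0.13).

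**Figure D5:**
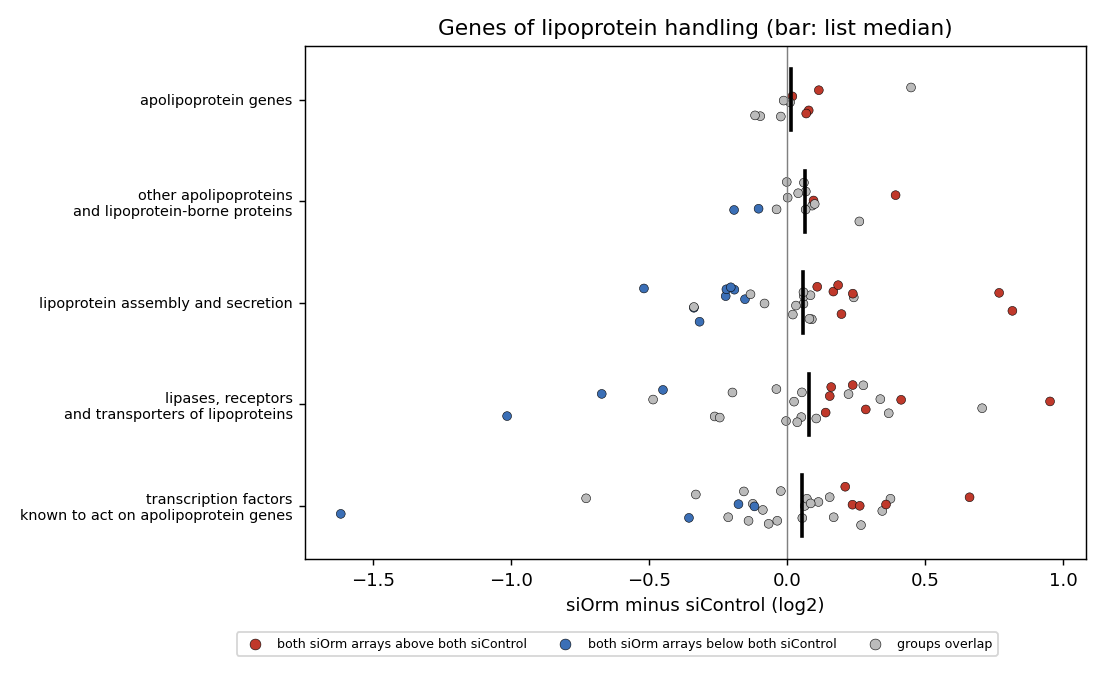
Difference between siOrm and siControl (log2) for every measured gene of 5 lists of lipoprotein handling; each point is a gene, colour marks whether the arrays of the groups overlap, and the bar is the list median. The apolipoprotein genes lie between -0.12 and 0.45, while the other lists span -1.62 to 0.95, and no gene passed the test over all genes.

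Lipases, receptors and transporters of lipoproteins (26 measured of 32 listed) had 0 genes past the test, 7 with both siOrm arrays above and 3 below, and a median difference of 0.080. The angiopoietin-like inhibitors of lipoprotein lipase had differences of opposite sign. Angptl4 stood at -0.34 and -0.65 in the controls and at 0.34 and 0.57 after siOrm, a difference of 0.95 (SE 0.17, limma, adjusted p = 0.857). It passed under a robust variance prior with a trend (limma, adjusted p = 6.45e-08), but not with the trend alone (limma, adjusted p = 0.0535). A trend over the mean of centred values follows no signal level, so neither fit is read as a call. With 1 array left out the difference ran from 0.80 to 1.11. Angptl8 had siControl values of 1.21 and 0.089 and siOrm values of -0.64 and -0.089, with a difference of -1.01 (SE 0.39, adjusted p = 0.994 by limma), or -0.45 without siControl replicate 1 and -1.58 without siControl replicate 2. Lpl, the lipase itself, differed by -0.67 (SE 0.33), with siControl replicate 2 at 1.06 and the other arrays between -0.17 and 0.058, and by -0.17 without siControl replicate 2. Without siControl replicate 1 the difference was -1.17. Abcc6, an efflux transporter of the liver, differed by 0.41 (SE 0.16).

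Transcription factors known to act on apolipoprotein genes (29 measured of 35 listed) had 0 genes past the test, 5 with both siOrm arrays above and 4 below, and a median difference of 0.055. Onecut1, a hepatocyte factor, stood at 0.52 and 1.13 in the controls and at -1.07 and -0.52 after siOrm, a difference of -1.62 (SE 0.28, limma, adjusted p = 0.857). It passed with a trend in the variance prior (limma, adjusted p = 0.0418) and with robust estimation added (limma, adjusted p = 1.34e-21). Since that trend follows no signal level, neither fit is read as a call here either. Without siControl replicate 1 the difference was -1.93, and with each of the other arrays left out it ran from -1.90 to -1.31. Nr1h4, the bile acid receptor that acts on several of these promoters, differed by 0.66 (SE 0.31), mostly through siOrm replicate 1 at 0.97, and by 0.20 without it. Klf15 differed by 0.36 (SE 0.15) and Cebpb by -0.36 (SE 0.17). Hnf4a, a main activator of the apolipoprotein genes, was looked up after the values were seen and stood at 0.20 and -0.31 in siControl and at -0.063 and 0.063 in siOrm. Its groups overlapped, at a difference of 0.055 (SE 0.20).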

How the data were processed

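RNA of mouse liver was measured on 4 single-colour Affymetrix expression arrays, 2 siControl and 2 siOrm, with the numbers in the titles read as replicate numbers. The deposited table holds log2 signal centred by the authors on the median of the 4 arrays for each probe set (largest row median 4.80e-07, from the values; base 2 assumed); for software, normalization between arrays and filters, the sources used here give nothing. Centring hides signal level and background, and 4 arrays limit the precision. Of 18852 probe sets, 17209 had 1 gene symbol in the platform annotation, 564 several, 1044 were not listed there and 35 were controls; 10923 genes resulted, each the mean of its probe sets. The test was limma's moderated test, two-sided (version 3.58.1 under R 4.3.3, lmFit and eBayes, constant variance prior with 3.60 degrees of freedom, Benjamini-Hochberg over all genes, threshold 0.05), after a check on simulated data. The same test over single probe sets called 0 of 18852.

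The apolipoprotein genes and the lists were chosen with earlier results of these data known. Named were all 10 apolipoprotein genes, Orm1, Orm2 and Orm3, up to 4 genes of each pathway list with the smallest p, up to 2 markers of a cell type with the widest range, and the 5 genes nearest to the apolipoprotein gene with the largest difference; exceptions are stated. Of the other marker lists, the means over siControl replicates 1 and 2 and siOrm replicates 1 and 2 were -0.16, 0.36, -0.063 and 0.088 for stellate cells, -0.19, 0.29, 0.029 and -0.041 for sinusoidal endothelium, -0.078, 0.11, -0.028 and 0.15 for cholangiocytes, 0.12, 0.56, -0.11 and -0.066 for neutrophils, and -0.11, -0.36, 0.45 and 0.11 for erythroid cells.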

Additional observations from a re-analysis of the deposited data

How the results depend on the processing

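Other settings were quantile normalization, centring of the arrays, other rules for probe sets, other variance priors, a natural logarithm and leaving out each array. No apolipoprotein gene was called in any of them. The 0 genes called over the whole table became 11 under a variance prior with a trend and 132 with robust estimation added, and ran from 0 to 229 when 1 array was left out. In the fits with 1 array left out, the lone array of a group is assumed to vary like the others. Furthest from the other arrays was siControl replicate 2, the lone control where siControl replicate 1 was left out. The SD over genes of its difference was 0.38 from siControl replicate 1, 0.43 from siOrm replicate 1 and 0.34 from siOrm replicate 2. Between the other arrays this SD was 0.23 to 0.31. The trend uses the mean of centred values and so carries no signal level. The median difference of the apolipoprotein genes ran from 0.0086 to 0.039 with 1 array left out. Differences whose sign changed then ran from -0.087 to 0.042 (Apoa1), -0.24 to 1.14 (Apoa4), -0.014 to 0.035 (Apoc1), -0.047 to 0.022 (Apoc3), -0.28 to 0.050 (Apom) and -0.095 to 0.62 (Lcat). No apolipoprotein gene changed sign under the other settings. With the replicate number as a block, 0 genes were called and the median difference was 0.015; the titles number arrays within groups only, and the correlation of their deviations over genes was 0.13. Counts of a further kind were tried in other settings after the data were seen: apolipoprotein genes with both siOrm arrays above (4 to 6 with 1 array left out) and with a range below the median of all genes (8 to 10). Leaving out an array can only keep or raise the first of these counts, so its span is no measure of stability. The share over all genes was not counted for these settings.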
